A study of Mus musculus with 6 samples.

Results

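Of the 10942 WDR5 regions that the wild-type rescue list held on chromosomes 1 to 19, 5596 (51.1%) lay apart from every WDR5 region of the mutant rescue list and from every H3K4me3 region of either line. These 5596 regions are the subject here, and they are called the WT-only regions off H3K4me3. The 4 lists together held 183983 regions on all chromosomes. The members were chosen by the presence or absence of called peaks at the same place, with 1 shared bp counted as overlap, so they rest on which peaks passed the authors' threshold. Their call strength and class are therefore descriptions and not tests. Among the other 5346 wild-type rescue regions, 4034 were left out because they overlapped H3K4me3 alone, 171 because they overlapped a mutant rescue WDR5 region alone, and 1141 because they overlapped both.

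All 6 samples came from Rx:GFP knock-in mouse embryonic stem cells (Rx is a transcription factor gene of the early eye) grown in 2i+LIF, a medium that holds the naive state, and were Wdr5 and p53 double knockouts. The mutant rescue carried WDR5 with the substitutions S91K and Y191F, and the wild-type rescue carried unaltered WDR5. Each line gave 1 WDR5, 1 H3K4me3 and 1 input library, fixed for 10 minutes with 1% formaldehyde, and the input libraries were not analysed here. With 1 library per antibody and line there is no replicate check on any difference between the lines, and no p-value is given. The labels do not say how the rescue construct is driven or whether a line is a single clone. As a check of the cell type, an H3K4me3 region lay within 1 kb of an end of 9 of 10 embryonic stem cell marker genes in the mutant rescue and of 9 of 10 in the wild-type rescue, Esrrb being the exception in both. Of 7 fibroblast markers 3 had the mark in the mutant rescue and 6 in the wild-type rescue, and of 6 neural markers 5 in the mutant rescue and 6 in the wild-type rescue. Over all 20665 protein-coding genes, 14270 had it in the mutant rescue and 14437 in the wild-type rescue. The mark was thus common at genes at large, and the check cannot tell these cell types apart. The mark is no measure of transcription, and no RNA was measured. The WDR5 list of the mutant rescue was the longer one, with 26888 regions on all chromosomes, and that of the wild-type rescue held 11095.

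WDR5 is a WD-repeat scaffold protein of the KMT2/SETD1 methyltransferase complexes, which methylate lysine 4 of histone H3. Its doughnut-shaped surface binds peptide motifs of partner proteins, among them the KMT2 enzymes, RBBP5 and MYC. The trimethylated mark, H3K4me3, collects at promoters, while enhancers mostly carry the monomethylated form. WDR5 has no DNA-binding domain of its own and is held on chromatin by partners. A WDR5 region away from H3K4me3 is thus one outside the class of sites at which the protein is best known.

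Few of these regions lay at annotated promoters, which the rule itself favours by leaving out regions on H3K4me3. The summit lay inside a RefSeq promoter window, which runs from 250 bases before to 50 after a start site, for 28 of the 5596 regions, in 30 windows. The promoter table (RefSeq, GRCm38.p6) gave 31365 windows and covered 16457 of 20665 protein-coding genes. By comparison 553 of the 4034 WT-only regions on H3K4me3 had their summit in such a window, and 728 of all 10942 wild-type rescue regions. The like class of the other line, the 23087 mutant-only regions off H3K4me3, had 55 summits in such windows. The share of the members was thus not below that of the like class. The windows of the 6 regions with the highest fold are shown, because they are the clearest calls of this class at a promoter, with 1 window per region and the protein-coding gene preferred. Pim1, which encodes a serine/threonine kinase, was added after its values were seen, because the WDR5 summit fell almost on its start site. Each sequence runs 5′ to 3′ along the gene, and the capitals mark the summit base with up to 10 bases on each side. The windows lie at chr2:79908350-79908649, minus strand (Pde1a), chr13:106836253-106836552, minus strand (Lrrc70), chr3:154330511-154330810, minus strand (Lhx8), chr11:108378903-108379202, minus strand (Gm36709), chr11:120731972-120732271, minus strand (Cbr2), chr12:110204633-110204932, plus strand (Gm40575) and chr17:29492835-29493134, plus strand (Pim1).
Pde1a: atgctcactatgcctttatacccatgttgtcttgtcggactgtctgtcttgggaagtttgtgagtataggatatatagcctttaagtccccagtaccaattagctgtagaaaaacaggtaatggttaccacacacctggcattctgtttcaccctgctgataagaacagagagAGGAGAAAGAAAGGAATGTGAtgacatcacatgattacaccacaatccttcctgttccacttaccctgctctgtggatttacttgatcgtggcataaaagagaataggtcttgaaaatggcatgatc
Lrrc70: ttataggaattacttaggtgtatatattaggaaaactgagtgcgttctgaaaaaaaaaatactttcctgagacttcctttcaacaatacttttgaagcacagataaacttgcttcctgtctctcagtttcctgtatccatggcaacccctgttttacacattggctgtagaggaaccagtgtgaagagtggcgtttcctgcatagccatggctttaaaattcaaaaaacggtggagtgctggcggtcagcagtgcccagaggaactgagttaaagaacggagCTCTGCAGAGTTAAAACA
Lhx8: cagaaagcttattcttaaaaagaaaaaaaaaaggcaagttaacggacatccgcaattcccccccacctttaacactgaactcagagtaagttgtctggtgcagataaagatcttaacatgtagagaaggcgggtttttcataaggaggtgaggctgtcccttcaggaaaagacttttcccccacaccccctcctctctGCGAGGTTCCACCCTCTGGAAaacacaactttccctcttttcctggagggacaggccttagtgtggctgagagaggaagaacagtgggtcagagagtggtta
Gm36709: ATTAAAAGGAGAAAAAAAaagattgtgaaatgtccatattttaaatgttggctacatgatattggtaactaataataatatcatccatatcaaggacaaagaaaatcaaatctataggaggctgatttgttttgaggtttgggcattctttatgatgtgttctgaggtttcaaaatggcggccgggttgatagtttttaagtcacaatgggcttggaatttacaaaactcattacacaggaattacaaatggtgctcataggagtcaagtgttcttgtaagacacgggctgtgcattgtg
Cbr2: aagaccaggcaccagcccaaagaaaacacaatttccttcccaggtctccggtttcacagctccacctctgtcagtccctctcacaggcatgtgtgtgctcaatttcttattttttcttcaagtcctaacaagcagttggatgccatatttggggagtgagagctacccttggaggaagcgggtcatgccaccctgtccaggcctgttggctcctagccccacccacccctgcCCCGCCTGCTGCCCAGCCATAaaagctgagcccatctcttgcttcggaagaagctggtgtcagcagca
Gm40575: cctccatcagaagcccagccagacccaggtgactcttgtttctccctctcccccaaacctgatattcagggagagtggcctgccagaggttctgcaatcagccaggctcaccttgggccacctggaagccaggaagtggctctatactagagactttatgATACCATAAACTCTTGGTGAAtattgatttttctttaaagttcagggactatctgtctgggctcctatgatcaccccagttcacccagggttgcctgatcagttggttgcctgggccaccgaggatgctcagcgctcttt
Pim1: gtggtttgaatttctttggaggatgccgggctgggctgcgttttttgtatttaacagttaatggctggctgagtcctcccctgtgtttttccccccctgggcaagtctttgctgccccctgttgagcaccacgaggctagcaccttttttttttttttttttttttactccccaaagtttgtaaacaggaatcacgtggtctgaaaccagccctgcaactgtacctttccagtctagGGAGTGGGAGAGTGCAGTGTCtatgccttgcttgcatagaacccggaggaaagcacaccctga

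The region at Pde1a, a calmodulin-dependent phosphodiesterase gene, had a fold of 3.35 and a −log10 q of 0.836, with its summit at −67 bp from the start site (negative is upstream). Every fold is the authors' value for enrichment at the summit and describes that region within its own list. At Lrrc70 the fold was 3.06 and the summit lay 42 bp inside the gene. At Lhx8, a LIM-homeobox transcription factor gene of the developing forebrain and teeth, the fold was 3.04 and the summit lay at −42 bp. The Lhx8 region was 86 bp from an H3K4me3 region in the mutant rescue and 28 bp from one in the wild-type rescue, so it sat at the edge of the mark and not far from it. At Cbr2, a carbonyl reductase gene, the fold was 2.96, the summit was at −8 bp, and the nearest H3K4me3 regions were 1937 bp away in the mutant rescue and 2060 bp away in the wild-type rescue. Pim1 had a fold of 2.57 and a −log10 q of 0.0232, with the summit at −3 bp and H3K4me3 21 bp away in the mutant rescue and 29 bp away in the wild-type rescue. The non-coding genes Gm36709 and Gm40575 had folds of 2.99 and 2.90 and lay more than 10 kb from the mark in both lines.

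Among all 28 such regions, 13 were within 1 kb of an H3K4me3 region, 6 of these within 50 bp, and 0 had a −log10 q of at least 2. Letters searched on both strands in the 30 windows included CACGTG (the E-box), GGTTCGA (part of the polymerase III B box), ATTTGCAT (the octamer), TGACGTCA (the cAMP response element), GGGCGG (the GC box), and CA and AG dinucleotide repeats. None of these is contained in another. The E-box was found in 3 of 30 windows (10.0%, interval 2.11 to 26.5%), those of Pim1, Lef1 and Rnf151, and in 7.14% of all 31365 windows. The GC box was found in 4 of 30 (13.3%, 3.76 to 30.7%), those of Prr19, Ddr1, Gm14170 and 5730435O14Rik, and in 36.0% of all windows. Each of the others named was in 0 of 30 windows, and in between 0.599% (AG repeat) and 1.83% (cAMP response element) of all windows. The median GC content was 48.7% in the 30 windows and 53% in all windows, and the median ratio of observed to expected CpG was 0.256 in the 30 and 0.388 in all. These windows were thus poorer in GC boxes and CpG than promoters at large, as a description of 30 sequences. Promoters at large include those on H3K4me3, which the rule kept out of the members, so the difference may be set by that choice. The windows of the mutant-only class were not searched. Some of the 30 windows also overlap, as those of Lhx8 and AI606473 do over 1 region.

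Most of the WT-only regions off H3K4me3 were weak. Their fold ran from 1.51 to 8.59 with a median of 2.66 and a 95th percentile of 3.43, beside a median of 2.69 and a 95th percentile of 4.87 in the other wild-type rescue regions. Regions with a −log10 q of 2 or more, a false discovery rate of at most 1% in the authors' calculation, are called strong here, and 178 members were strong (3.18%, 95% interval 2.74 to 3.67%). The share was 10.4% over all wild-type rescue regions of these chromosomes and 17.9% (16.8 to 18.9%) in the other 5346. A −log10 q of 0 was listed for 2917 members (52.1%, 50.8 to 53.4%). That share was 43.1% over all wild-type rescue regions, 33.7% in the other 5346 and 37% in the mutant-only regions off H3K4me3. The median width of the members was 184 bp, and 1449 of them (25.9%) had a width of 151 bp, the smallest in the list. That width was found for 17.6% of all wild-type rescue regions, 8.87% of the other 5346 and 22.8% of the mutant-only class. In the mutant-only regions off H3K4me3, the like class of 23087 regions from the other line, 331 (1.43%, 1.28 to 1.60%) were strong and the median fold was 2.49. Read depth is not known, and the length of each list and the width of its regions depend on it.

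At the edge of the rule, the 5 members nearest to H3K4me3 and the 5 nearest to a mutant rescue WDR5 region had folds of 2.12 to 3.27, and the 5 regions just outside had folds of 2.12 to 3.08. The member closest to H3K4me3 was chr8:27024710-27024881, in Erlin2 (fold 2.14), which touched a wild-type rescue H3K4me3 region without sharing a base, and chr4:96188072-96188313 (fold 2.39) touched a mutant rescue one. The member closest to a mutant rescue WDR5 region, chr11:3793393-3793578 in Osbp2, had a fold of 2.31 and also touched it. Just outside, chr1:58943724-58943915 (fold 3.08) shared 1 bp with a mutant rescue WDR5 region, chr11:71503119-71503380 (2.77) shared 1 bp with H3K4me3 of the mutant rescue, and chr3:95174315-95174520 (2.86) shared 1 bp with H3K4me3 of the wild-type rescue. In all, 12 members lay within 10 bp of a region that would have excluded them, and 22 regions were left out for an overlap of 10 bp or less.

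The 15 members of highest −log10 q all lay more than 2 kb from an end of a protein-coding gene. The highest −log10 q, 23.0, belonged to chr17:71327309-71327550, with a fold of 7.68. It was inside the non-coding gene 4930471L23Rik and 15753 bp from an end of Emilin2, an extracellular matrix gene. The nearest mutant rescue WDR5 region was 434 bp from it, and the nearest H3K4me3 regions were 15748 bp away in the mutant rescue and 15669 bp away in the wild-type rescue. Next came chr16:96476030-96476312 (fold 8.59, −log10 q 20.9), inside Pcp4, which encodes a calmodulin-binding peptide of neurons, and chr10:89324977-89325256 (8.51, 18.5), inside Ano4, of the anoctamin family. The region chr11:42303509-42303698 (7.11, 16.0) lay 2739 bp from an end of Gabra6, a GABA receptor subunit gene, with H3K4me3 116030 bp away in the mutant rescue and 115921 bp away in the wild-type rescue. At chr3:36508467-36508693 (7.97, 15.8) the nearest gene was Smim43, with its end 6934 bp away.

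Further members among the 15 of highest −log10 q lay inside Cnih3 (chr1:181359579-181359767, fold 5.49), an auxiliary subunit gene of AMPA receptors, and inside Klhl3 (chr13:58028897-58029178, 5.48), an adaptor of a cullin ubiquitin ligase. One was inside Snhg14 (chr7:59740864-59741024, 4.47), the host transcript of small nucleolar RNAs in the imprinted Snrpn domain. Others lay far from any protein-coding gene, such as chr4:15762646-15762878 (6.76), 118386 bp from Calb1, and chr8:20123702-20123856 (2.60), 188372 bp from the nearest. The fold of this last region was the lowest of the 15, and H3K4me3 lay 480 bp away in the mutant rescue and 467 bp away in the wild-type rescue. Among members over 10 kb from H3K4me3, the 10 of highest fold added regions in Igh (chr12:115757694-115757865, 5.77), in Fam13a (chr6:58940409-58940689, 5.56), in Gm31323 near Ttc3 (chr16:94482001-94482156, 5.55) and at chr10:16495423-16495705 (5.53), which lay 1227523 bp from the transcriptional co-regulator gene Cited2.

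A fold of at least 5 was reached by 23 members (0.411%), of which 8 were 270 to 290 bp wide, as the Pcp4 and Ano4 regions were. Such a fold was reached by 2.57% of all wild-type rescue regions, 4.83% of the other 5346 and 0.0433% of the mutant-only class. A width of 270 to 290 bp was found for 227 of all members (4.06%) and for 15 of the 178 strong ones. It was found for 5.75% of all wild-type rescue regions, 7.52% of the other 5346 and 4.73% of the mutant-only class.

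Of the 178 strong members, 24 were on chromosome 14 and 18 on chromosome 4, while chromosome 9 held 0. The mutant-only class had 40, 25 and 13 of its 331 strong regions on these chromosomes, in the same order. The strong members occupied 141 windows of 1 Mb, and 33 of them lay in 8 windows with at least 3 each. The window from 20 to 21 Mb of chromosome 8 (chr8:20000001-21000000), with the beta-defensin gene Defb33, held 7, beside 10 strong regions of the mutant-only class. On chromosome 14 the window chr14:4000001-5000000, which holds a run of predicted genes such as Gm5796 and Gm3115, held 6 beside 13 of the mutant-only class, and chr14:7000001-8000000 held 4 beside 9. Windows at the Speer4e gene on chromosome 5 (chr5:14000001-15000000), at the zinc finger genes Zfp600 and Zfp993 on chromosome 4 (chr4:146000001-147000000) and at the immunoglobulin heavy chain locus were among the rest. Several of these windows hold runs of related genes, and in each of the 8 the mutant-only class also had a strong region. How the authors' alignment treated reads from repeated sequence is not given in the sources used here.

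The rule took out every region on H3K4me3, a mark of promoters, so the difference in position between the members and the other wild-type rescue regions is largely set by the choice of members and is given as a description. The mutant-only class was chosen off H3K4me3 in the same way. Of the 5596 members, 2686 (48.0%, interval 46.7 to 49.3%) had their summit inside a protein-coding gene, beside 59.3% over all wild-type rescue regions and 71.1% (69.8 to 72.3%) in the other 5346. Protein-coding genes covered 40% of the span of these chromosomes. In the mutant-only regions off H3K4me3 the share was 40.7% (40 to 41.3%), near that cover. A member lay within 1 kb of an end of a protein-coding gene in 242 cases (4.32%, 3.81 to 4.89%), beside 30.7% over all wild-type rescue regions, 58.2% in the other 5346, 2.75% (2.54 to 2.97%) in the mutant-only class and 3.04% of the span. A further 521 members (9.31%) were inside another annotated gene, and 2278 (40.7%, 39.4 to 42.0%) lay between genes, beside 49.3% of the mutant-only class and 50.5% of the span. These span shares include positions on H3K4me3 (3% of the span), where no region of either class off the mark can lie. They are therefore not strictly alike to the shares of regions, least of all at gene ends. The share inside genes was thus 48.0% of the WT-only class against 40.7% of the mutant-only class, with intervals that do not overlap. The intervals cover counting error only, and the difference has no replicate check.

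The share inside genes differed with call strength. Of the 178 strong members 35.4% (28.4 to 42.9%) were inside a protein-coding gene, and of the 2917 members with a −log10 q of 0 the share was 51.1% (49.2 to 52.9%). In the mutant-only class the share was 34.1% (29 to 39.5%) of strong regions and 41.2% (40.1 to 42.2%) of those at 0, so among strong regions the intervals of both classes overlapped. At gene ends the shares were 1.69% of strong members (3 regions, 0.349 to 4.85%) and 4.73% (3.99 to 5.57%) of those at 0. These intervals overlap, and the strong share rests on 3 regions. In the mutant-only class the share at gene ends was 5.14% (3.02 to 8.10%) of strong regions and 2.64% of those at 0.

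**Figure D1:**
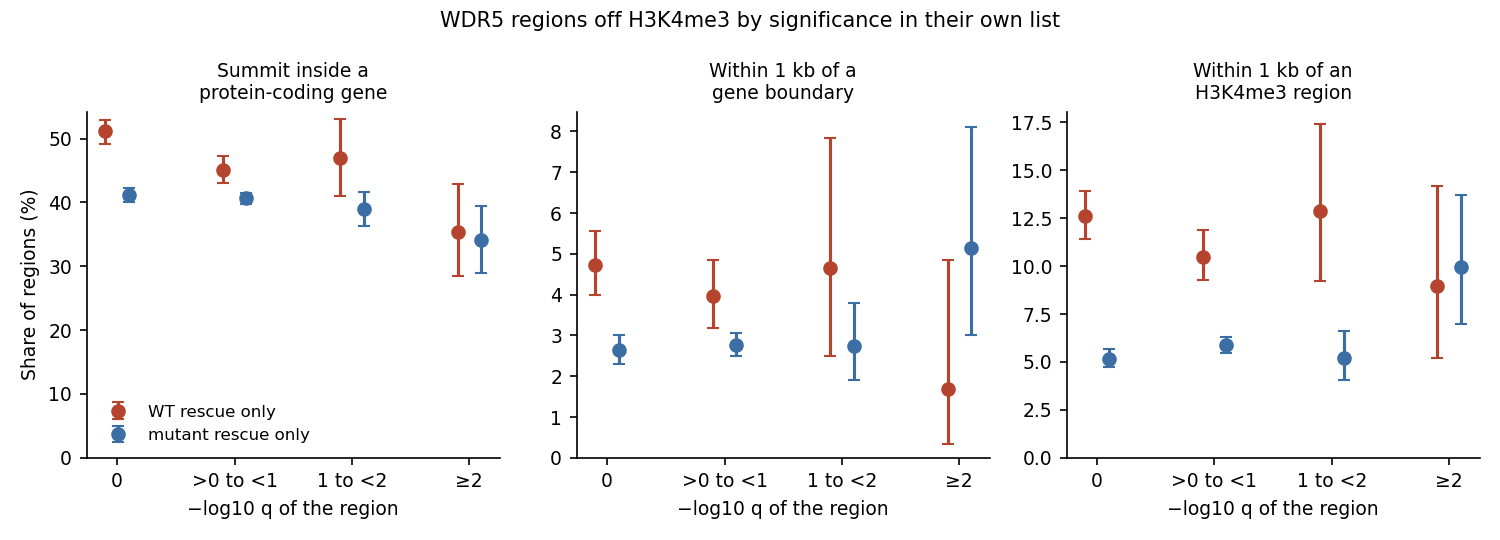
Share of WDR5 regions off H3K4me3 (y axis, %) by the −log10 q of the region in its own list (x axis), for regions of the wild-type rescue only (red) and of the mutant rescue only (blue); points are shares and bars exact 95% binomial intervals. The left panel shows summits inside protein-coding genes, 35.4% of the strong and 51.1% of the weakest wild-type rescue class, the middle panel gene ends and the right panel H3K4me3 within 1 kb.

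Most members lay kilobases from H3K4me3, but nearer to it than the mutant-only class did. The median distance of a member to the nearest H3K4me3 region of either line was 9230 bp, beside 16790 bp in the mutant-only class. A distance of at most 1 kb was found for 654 members (11.7%, 10.9 to 12.6%), for 5.64% (5.34 to 5.94%) of the mutant-only class and for 6.03% of the span outside H3K4me3. Within 100 bp the counts were 100 members (1.79%), beside 0.567% of the mutant-only class and 0.686% of the span. Beyond 50 kb the order turned, with 685 members (12.2%, 11.4 to 13.1%) and 20.9% (20.4 to 21.5%) of the mutant-only class. Of the 654 near members, 425 had H3K4me3 within 1 kb in both lines, 112 in the mutant rescue alone and 117 in the wild-type rescue alone. The near share was 8.99% (5.23 to 14.2%) of strong members and 12.6% (11.4 to 13.9%) of those at 0. In the mutant-only class it was 9.97% (6.96 to 13.7%) of strong regions and 5.18% of those at 0, so among strong regions the classes had overlapping intervals.

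**Figure D2:**
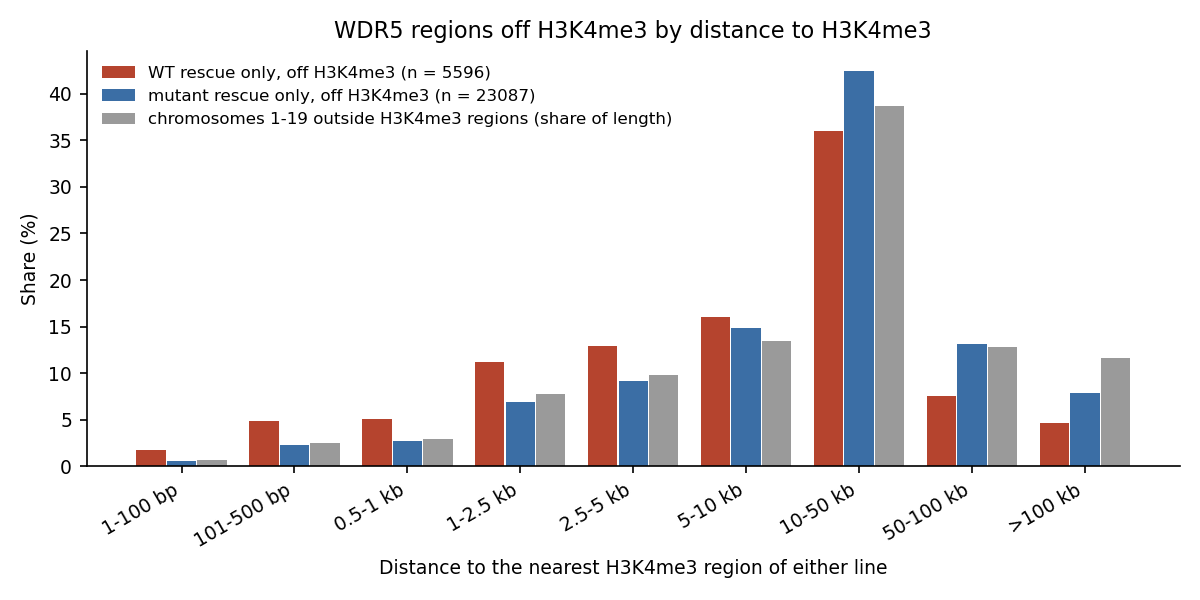
Share (y axis, %) of WT-only regions off H3K4me3 (red), mutant-only regions off H3K4me3 (blue) and the length of chromosomes 1 to 19 outside H3K4me3 regions (grey), by distance to the nearest H3K4me3 region of either line (x axis). The red bars are the highest in every bin up to 10 kb, and the lowest in the bins beyond it.

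In 31 members H3K4me3 lay within 1 kb on both sides, and in 12 of these within 500 bp on both sides, so that the WDR5 region sat in a gap between marked regions. The one of highest fold among the 12, chr10:81267593-81267757 (fold 3.13, −log10 q 1.03), was inside Apba3, a gene of the Mint adaptor family. Another, chr7:45704777-45705103 (2.79), lay over an end of Dbp, a clock-controlled transcription factor gene, with its summit at −402 bp from the start site and H3K4me3 140 and 18 bp away. One more was inside Jarid2, a Polycomb accessory subunit gene (chr13:44754723-44754888, 2.57), and another inside Tcf7l1, a repressor of Wnt targets (chr6:72753131-72753281, 2.46). None of the 12 was strong. The mark on both sides within 1 kb was thus found for 0.554% of members (0.377 to 0.785%). The share was 0.503% (0.379 to 0.654%) over all wild-type rescue regions, near that of the members, and 0.449% in the other 5346. In the mutant-only class it was found for 33 of 23087 regions (0.143%, 0.0984 to 0.201%).

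Within 1 kb of a member there was a mutant rescue WDR5 region in 148 cases (2.64%, 2.24 to 3.10%). The positions within that distance made up 2.04% of the span outside mutant rescue WDR5 and H3K4me3 regions, a little below the interval of the members. A member has a width and a single position has none, so these shares are not strictly alike. Within 100 bp there were 17 (0.304%). The median distance was 27670 bp.

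Around start sites the members formed no peak, which the rule itself favours, since H3K4me3 marks start sites and the class on H3K4me3 was chosen to lie on it. The promoter table has no window on chromosome 18. Of the 5440 members elsewhere, 55 (1.01%) had their summit in the first 1 kb after a RefSeq start site and 79 (1.45%) in the 1 kb before it, while 44.1% and 14.7% of the WT-only regions on H3K4me3 did. From 1 to 2.5 kb downstream the count was 127 (2.33%), and 141 (2.59%) from 1 to 2.5 kb upstream. Within 10 kb on either side there were 1369 members (25.2%), beside 17.5% of the mutant-only class.

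**Figure D3:**
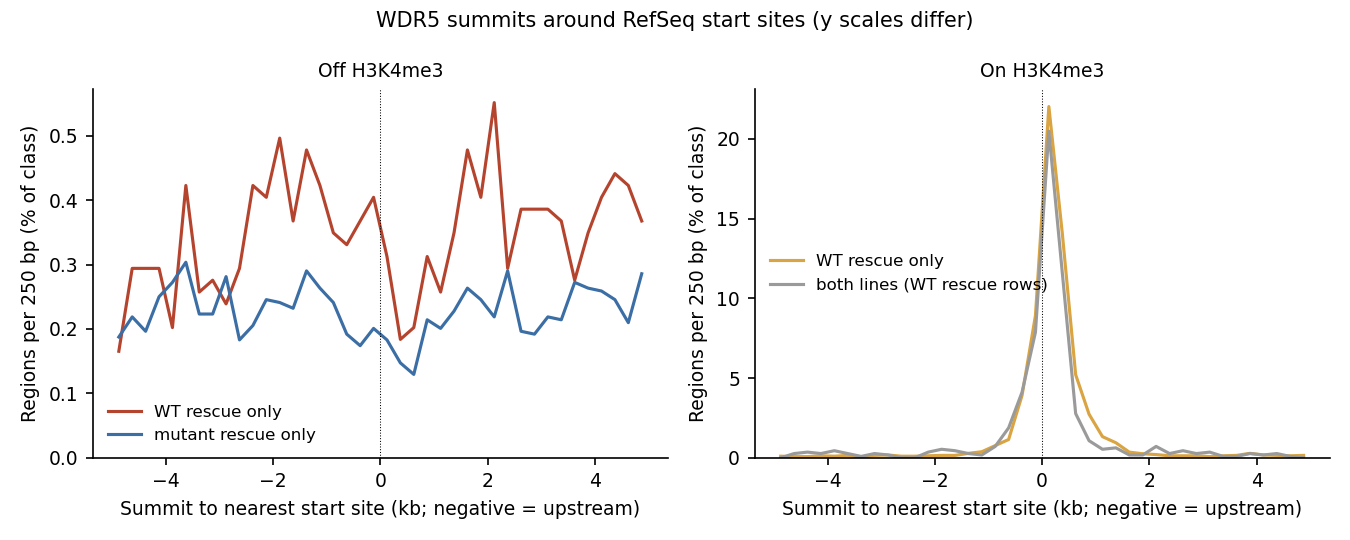
WDR5 summits per 250 bp, as a share of each class (y axis, %), by distance to the nearest RefSeq start site (x axis, kb). Regions off H3K4me3 (left: wild-type rescue only in red, mutant rescue only in blue) have no peak at the start, whereas on H3K4me3 (right: wild-type rescue only in yellow, both lines in grey) the WT-only class reaches 22.0% in the first 250 bp; the y scales differ.

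A member lay inside or within 1 kb of an end of 2345 of 20665 protein-coding genes (11.3%), and within 1 kb of an end of 262 (1.27%). A strong member lay inside or within 1 kb of 63 (0.305%). The mutant-only regions off H3K4me3 did so at 5111 genes (24.7%). Inside genes, 1836 held 1 member summit, 291 held 2 and 61 held 3. Per megabase of gene, members were rarest in the longest genes. There were 3.41 summits per Mb in genes under 10 kb, 3.50 in genes of 10 to 50 kb, 3.18 in genes of 50 to 200 kb and 1.94 in genes of 200 kb or more. In the mutant-only class the same length classes had 7.33, 8.75, 9.87 and 9.79 per Mb, lowest in the shortest genes.

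**Figure D4:**
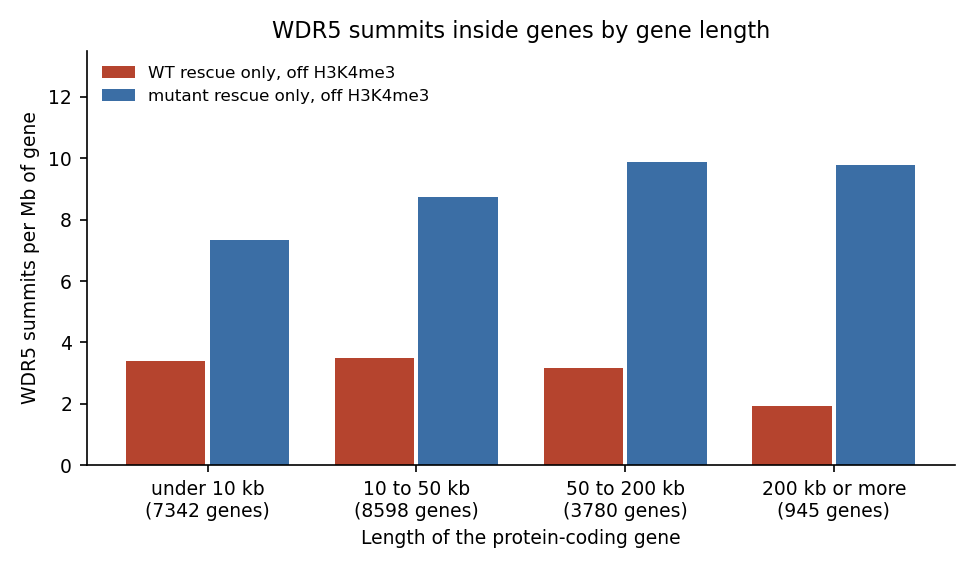
WDR5 summits per Mb of protein-coding gene (y axis) by gene length (x axis), for WT-only regions off H3K4me3 (red) and mutant-only regions off H3K4me3 (blue). The red bars lie between 3.18 and 3.50 in the shorter classes and at 1.94 in genes of 200 kb or more, while the blue bars are 7.33 in the shortest and 9.79 in the longest genes.

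The highest folds at gene ends were modest. The first was chr14:7037249-7037399 (fold 4.48, −log10 q 6.10), 217 bp from Gm3685, and the second chr2:112130472-112130674 (4.11, 2.73), inside the olfactory receptor gene Olfr1316. Then came regions at Dupd1 (3.64), a dual-specificity phosphatase gene, at Gm10499 (3.63), at Gm26650 (3.6), at Plpp4 (3.59), a phospholipid phosphatase gene, and at Nmt2 (3.54), an N-myristoyltransferase gene. Tarm1 (3.54), an immune receptor gene, Txndc16 (3.44) and the vomeronasal receptor gene Vmn1r27 (3.36) completed the 10. From Dupd1 on, the −log10 q was 1.92 or lower. H3K4me3 lay 205 bp from the Nmt2 region in the mutant rescue and 104 bp from it in the wild-type rescue, and more than 2 kb from the others in both lines.

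The genes with the most member summits were mostly long, and most were on chromosome 8. Tenm3, a teneurin gene of neuronal wiring, held 10 in 1297 kb, with folds of 2.09 to 3.14, and 14 summits of the mutant-only class. Nrg1, which encodes an ErbB ligand, held 8, and the polarity gene Pard3 held 7, of which 1 was strong (fold 4.32). Gm26650 on chromosome 14, with 1 strong member, Ank2 (an ankyrin), Tenm4 and Csmd1 held 6 each. Skint5, Inpp4b, Marchf1 (a ubiquitin ligase), Galntl6 and Cdh13 held 5 each. Of the genes named here, 8 lie on chromosome 8. Per Mb, Gm26650 had the most of the genes named, with 33.2 member summits beside 44.3 of the mutant-only class. Pard3 had 12.8 beside 10.9 and Csmd1 3.65 beside 15.2, while all protein-coding genes had 2.75 beside 9.52.

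Chromosome 8 stood apart in density. It held 530 members, or 4.10 per Mb, while the other chromosomes ran from 1.61 per Mb on chromosome 19 to 2.87 on chromosome 11. Its members also had the lowest median fold, 2.46, against 2.60 to 2.79 elsewhere. The mutant-only class had its highest density there as well, 12.1 per Mb, with 6.75 to 10.4 on the others. H3K4me3 regions numbered 36.5 per Mb on chromosome 8 in the mutant rescue and 35.8 in the wild-type rescue, second to chromosome 11 with 41.1 and 39.0. Members made up 54.6% of all wild-type rescue WDR5 regions on chromosome 8, and 40.1% (chromosome 19) to 57.4% (chromosome 14) on the others. The number of copies of each chromosome in these cells was not tested.

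**Figure D5:**
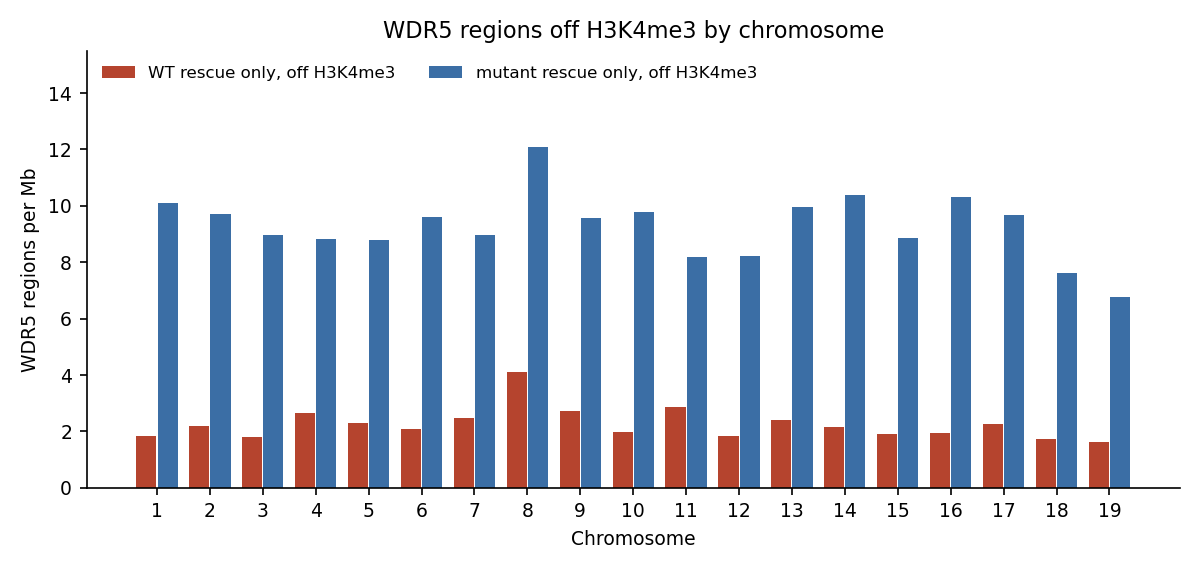
WDR5 regions per Mb (y axis) on each chromosome (x axis), for WT-only regions off H3K4me3 (red) and mutant-only regions off H3K4me3 (blue). Chromosome 8 is the highest in both, with 4.10 and 12.1 per Mb.

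The immunoglobulin heavy chain locus, singled out after its values were seen, was a second dense place. Igh (chr12:113258768-116009954) held 38 members in 2.75 Mb, or 13.8 per Mb, of which 6 were strong and 13 had their summit within 1 kb of a variable segment. Their folds ran from 1.78 to 5.77. Of 184 variable segments annotated there, 16 had a member within 1 kb. The mutant-only class had 64 regions in the locus, or 23.3 per Mb, 3 of them strong and also 13 within 1 kb of a variable segment. Over all of chromosome 12 there were 1.85 members and 8.23 mutant-only regions per Mb. The share of the locus that lies within 1 kb of a variable segment was not computed. There were 5 other wild-type rescue WDR5 regions there, and the H3K4me3 lists had 38 regions in the mutant rescue and 26 in the wild-type rescue.

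Counts over the gene lists were small, and each is to be read against 11.3% of all protein-coding genes. For lists of very short genes the nearer measure is the 1.27% with a member within 1 kb of an end. The share of genes with a member summit also grew with length, 1.43% under 10 kb and 50.4% at 200 kb or more. Of 24 naive pluripotency genes on these chromosomes, 3 had a member (12.5%): Stat3 (fold 3.12), the transducer of the LIF signal, Tet1 (2.28), which oxidises methylcytosine, and Zfp42 (1.89), a zinc finger gene of naive cells. All of these were inside the gene, at 9579 bp or more from the gene's listed start site, and none was strong. The Zfp42 region lay 315 bp from H3K4me3. Of 15 formative and primed genes 3 had one (20%): Dnmt3a (3.23), a DNA methyltransferase, Lin28a (2.90), an inhibitor of let-7 processing, and Lef1 (2.57), a Wnt effector with its summit at −246 bp from a start site, where H3K4me3 lay 23043 bp away in the mutant rescue and 365 bp away in the wild-type rescue. These 15 genes held 5 member summits in 0.525 Mb, and the naive list held 3 in 0.714 Mb, so densities over these lists rest on very few summits.

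Neuroectoderm and eye-field genes gave 1 of 20, Mitf (2.90), a pigment cell factor. Mesoderm genes gave 1 of 19, Evx1 (2.25), and endoderm genes 2 of 12, Dab2 (3.01) and the hepatocyte factor Hnf4a (2.56). Of 39 Hox genes 0 had a member, and of 24 p53 target genes 0, while the mutant-only class had regions at 1 and 2 of them. Of 391 transfer RNA genes 0 had a member within 1 kb, beside 19 for the mutant-only class. In the wild-type rescue, H3K4me3 lay within 1 kb of an end of 36 Hox genes, 23 p53 targets and 286 transfer RNA genes. In the mutant rescue the counts were 34, 23 and 287. The rule leaves out WDR5 regions on that mark, which itself favours few members at such genes. These lists are also short or made of short genes, and a region missing from a peak list is not evidence of absence.

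Among chromatin genes, 3 of 26 Polycomb subunit genes had a member, namely Kdm2b (3.08), Cbx7 (2.89) and Jarid2 (2.57). Of 18 KMT2/SETD1 subunit genes, the complexes of which WDR5 itself is a part, 1 had a member, Paxip1 (2.43). Of 75 histone genes 1 had one, H13, a name that the list's pattern took in and that encodes a signal peptide peptidase and no histone. Nucleolar and translation factors gave 1 of 23, Polr1a (2.89), the large subunit of polymerase I. Of 79 cytosolic ribosomal protein genes, 6 (7.59%) had a member, 5 of them at a gene end (6.33%, beside 1.27% of all protein-coding genes), and the mutant-only class also lay at 6 of the 79. The highest folds were at Rps9 (3.05), 70 bp from H3K4me3, at Rpl27 (3.02), 233 bp from it, inside Rps15a (2.74), 276 bp from it, and at Rps2 (2.65), 604 bp from it. The Rps2 region is also the one in the Rnf151 promoter window. None of the regions at these chromatin and translation genes was strong.

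Signalling lists gave 7 of 28 Wnt pathway genes (25%), with Znrf3 (3.16), a ubiquitin ligase that removes Wnt receptors, Tcf7l2 (2.94), the co-receptor Lrp5 (2.78) and Tcf7l1 (2.72) leading, beside 11 of 28 for the mutant-only class. FGF and MAPK genes gave 2 of 29, the adaptor Grb2 (2.39) and the receptor Fgfr4 (2.18). Circadian clock genes gave 3 of 19, Dbp (2.79), Arntl (2.38), the partner of CLOCK, and Nfil3 (2.09), of which Dbp and Arntl had it at a gene end. DNA repair genes gave 4 of 24, Xrcc6 (3.0), Prkdc (2.59), Palb2 (2.44) and the helicase gene Wrn (2.31), all inside the gene and over 9 kb from H3K4me3.

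Synaptic adhesion and other long neuronal genes gave the highest share of the lists, 21 of 29 (72.4%), at a low density. Their median length was 1201 kb, and they held 50 member summits in 40.1 Mb, or 1.25 per Mb, less than the 2.75 per Mb of all protein-coding genes. In the mutant-only class all 29 had a region, at 8.91 per Mb beside 9.52. Ptprt (fold 5.02, −log10 q 5.63), a receptor phosphatase gene, was the strongest, 343948 bp from H3K4me3, followed by Prkg1 (3.63), a cGMP-dependent kinase, and Lsamp (3.59). Clustered protocadherin genes gave 19 of 57 (33.3%), but clustered genes overlap each other, and Pcdhga1, Pcdhga2 and Pcdhga10 share 1 region. Zinc finger (Zfp) genes gave 41 of 360 (11.4%), of which 6 had a strong member, led by Zfp993 (4.23) and Zfp600 (4.03). Olfactory receptor genes, which serve in olfactory neurons, gave 14 of 1103 (1.27%), led by Olfr1316, Olfr1303 (3.12) and Olfr495 (3.12), beside 58 for the mutant-only class.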

How the data were processed

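The tools named in the submitters' processing notes are MACS2 2.1.2, Picard, SAMtools and BWA 0.7.17-r1188, with the build mm10. Settings and the control used are not given in the sources used here. Each of the 4 deposited lists belongs to 1 library, and no pooling is recorded. The authors' lists give a score, −log10 values of p and q, and a fold enrichment (a ratio) at each summit. The deposited score was not used. The smallest deposited −log10 p in both WDR5 lists was 2.00. Read depth is unknown.

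Overlap needed at least 1 bp (bedtools distances, where 1 means touching). Genes and promoters came from RefSeq tables of GRCm38.p6, which shares its coordinates with mm10. A gene end is either annotated end, since the gene table gives no strand and the promoter table covers only part of the genes. The span of a chromosome runs to the last region listed on it. Shares have exact (Clopper-Pearson) 95% binomial intervals, for counting error only. The interval code was checked on simulated rows: 3200 of 3200 distances equalled those of bedtools 2.31.1 and 200 of 200 planted overlaps were found. No tests or p-values were made, because there is 1 library per antibody and line. Python 3.11.15, numpy 2.4.6, pandas 2.3.3, scipy 1.17.1 and matplotlib 3.10.9 were used.

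The members and the 25 gene lists were chosen with earlier results of these data known. Regions named are the 15 of highest −log10 q, the 10 of highest fold at a gene end and beyond 10 kb of H3K4me3, the genes with most summits (ties included), up to 4 genes per list by fold, and those next to the overlap threshold. A few of these are left out of the text. Planned motif counts around summits were limited to promoter sequences, since no genome sequence was used here. Alternatives changed the −log10 q, −log10 p and overlap limits, the list length, windows, gene set and chromosomes.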

Additional observations from a re-analysis of the deposited data

Results flagged for a closer look

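The rule keeps to chromosomes 1 to 19. Outside them, 30 of the 68 wild-type rescue WDR5 regions on chromosome X also overlapped no mutant rescue WDR5 region and no H3K4me3 region, and they entered no comparison. The same held for 30 of the 69 regions on unplaced scaffolds and for 2 of the 16 on chromosome Y. These counts are given because they lie in data that the comparisons did not use.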

How the results depend on the processing

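Of 47 alternative values, 15 stayed close to the reported one and 32 moved. No paired analysis was possible because each antibody and line has 1 library.

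Keeping only wild-type rescue WDR5 regions of −log10 q 2 or more left 178 members at 63 genes, with 1.69% at a gene end, 35.4% inside a gene, 8.99% within 1 kb of H3K4me3 and 1.69% within 1 kb of a mutant rescue WDR5 region. With that limit in all 4 lists there were 216 members, and the shares were 2.78%, 33.3%, 9.72% and 0.463%; under both, 100% pass that limit by construction. A −log10 p of at least 5 left 448 members, 39.7% of them strong, 3.57% at a gene end and 42.6% inside a gene. A reciprocal overlap of 50% raised the members to 9870, of which 5.68% were strong, 29.9% lay at a gene end, 59.7% inside a gene, 49.6% within 1 kb of H3K4me3 and 9.56% within 1 kb of a mutant rescue WDR5 region; narrow WDR5 regions inside wider H3K4me3 regions then count as members. Taking regions within 1 kb as overlapping gave 4829 members, with 3.35% at a gene end and, by construction, 0% near H3K4me3 or mutant rescue WDR5. A mutant rescue WDR5 list shortened to the length of the wild-type rescue list gave 1.37% near it. Wider limits gave 9.95% at gene ends (2.5 kb), 35.8% near H3K4me3 and 12.5% near mutant rescue WDR5 (5 kb). All annotated genes gave 8.52% at ends and 57.5% inside.

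Leaving out chromosome 8, or regions 270 to 290 bp wide, both chosen after seeing the data, moved none of the values computed under them. Depth is unknown, so the weak regions, which are most of the members, cannot be separated from those that a deeper library would list in the other line.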

Other observations

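Small RNA genes lay near a few members. Of 1286 small nucleolar RNA genes on chromosomes 1 to 19, 13 (1.01%) had a member inside or within 1 kb, and the mutant-only class lay at 26. The highest fold was at Gm26032 at the Snhg14 region (fold 4.47, −log10 q 8.97). Of 1136 microRNA genes 13 (1.14%) had one, at Mir6972 (2.90), Mir190b (2.84), Mir6952 (2.72), Mir493 (2.67) and others, all of those named with a −log10 q under 0.5, beside 30 for the mutant-only class. Both shares were a little under the 1.27% of all protein-coding genes with a member within 1 kb of an end. Of 12408 long non-coding RNA genes 539 had one (4.34%), beside 1765 (14.2%). Solute carrier genes gave 34 of 324 (10.5%), led by the sodium/proton exchanger gene Slc9a9 (3.33), beside 84.

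In windows of 1 Mb, 1981 of 2470 held a member, with a median of 2 among those, and 21 held 9 or more. The densest after the immunoglobulin heavy chain locus was chr14:4000001-5000000 with 16 members, 6 of them strong, beside 25 of the mutant-only class, and the densest window of that locus, chr12:115000001-116000000, held 19 beside 27. The window chr13:68000001-69000000, with Mtrr and the adenylate cyclase gene Adcy2, held 11 members with folds of 1.90 to 3.63, beside 8 of the mutant-only class. The window chr8:123000001-124000000, with Ankrd11 and Fanca, held 9 members beside 2. These windows were picked for their counts after the values were seen.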
